A study of Mus musculus with 22 samples.

Results

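The genes described here were 40 autophagy and lysosome genes, followed across the livers of tumour-bearing and sham-injected mice. They were found by matching each gene symbol to its Ensembl identifier in the mouse annotation, and all 40 were among the 15448 genes of the count table. They comprised 5 genes of the initiation complex, 3 of the class III phosphatidylinositol 3-kinase complex, 5 of membrane supply, 6 of the conjugation machinery, 5 of the ATG8 family and 5 cargo receptors. The remainder were 2 transcription factors, 2 lysosomal membrane proteins and 7 lysosomal hydrolases. All 40 passed the filter on low counts. They were chosen by name and role, with no threshold on a measured value, but with earlier results of these data known.

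All 22 animals were male wild-type CD2F1 mice, and each library was polyA RNA from 1 liver. The C26-TDCA group (n = 8) carried the C26 tumour, a transplanted mouse colon carcinoma widely used as a model of cancer cachexia. These mice received taurodeoxycholic acid, a bile acid, at 10 mg/kg by daily injection into the peritoneum. The C26 group (n = 8) carried the same tumour and was described as untreated. The CT group (n = 6) was sham-injected and labelled as given vehicle. No mice without a tumour received the bile acid, so it was compared in tumour-bearing mice only. As labelled, C26-TDCA and C26 mice differed in daily injection as well as in the bile acid. C26 and CT mice differed in vehicle as well as in the tumour. Within each comparison these cannot be told apart. The ages of the mice and the time of liver collection were not given in the sources used here.

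Total counts per library were 20521443 to 28264450 in C26-TDCA livers, 17512071 to 28134658 in C26 livers and 16511100 to 25260393 in CT livers. Along the principal component that held 60.7% of the variance, every CT library lay apart from every tumour-bearing library. The summed level of 10 hepatocyte markers overlapped between the groups, at 66480 to 80260 CPM (counts scaled to a common library size) in C26-TDCA livers, 62840 to 80690 CPM in C26 livers and 71020 to 79610 CPM in CT livers. In bulk liver RNA, fewer cells of a type and less RNA per cell cannot be told apart.

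Autophagy encloses cytoplasm, organelles or marked cargo in a double membrane and delivers it to lysosomes for breakdown. A kinase complex built around ULK1 starts the process, a lipid kinase complex marks the site, lipid carriers extend the membrane, and a ubiquitin-like conjugation system attaches ATG8 proteins to it. Cargo receptors bind both their cargo and ATG8 proteins, and lysosomal hydrolases digest what arrives. In liver, autophagy supplies amino acids and fatty acids during fasting and clears mitochondria and lipid droplets, and the related transcription factors TFEB and TFE3 switch on many autophagy and lysosome genes. Transcript levels, which are what was measured here, do not report the rate of autophagy.

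In C26 livers set against CT livers, 5 of 7 lysosomal hydrolases rose and 4 of 5 cargo receptors fell, while 2 genes of the ATG8 family rose and 2 fell. Ctsl, Map1lc3b and Tfe3 were among the genes that rose, and Gabarapl1, Bnip3 and Optn among those that fell. Of the 40 genes, 12 rose and 13 fell at an adjusted p under 0.05 (edgeR quasi-likelihood test, Benjamini-Hochberg adjustment over the 14785 genes tested). Across all genes tested 58.1% were called in this comparison, 28.9% higher and 29.2% lower, so the 62.5% of the 40 genes that were called lay near the background. Their median log2 fold change was -0.08, against a median of -0.00 over all genes tested. The values of the C26 and CT groups did not overlap for 18 of the 40 genes (45.0%), against 29.5% of all genes tested. An absolute log2 fold change of at least 1 was reached by 3 called genes, Map1lc3b, Gabarapl1 and Ctsl, and by 18.1% of all genes tested. With a trend of the counts on transcript length and GC content removed, 11 of the 40 genes rose and 21 fell. Of all 14775 genes in that fit, 4016 rose and 4847 fell, with a median log2 fold change of -0.043. The 8 genes called lower in that fit and not in the one used here were Ulk1, Atg13, Atg2a, Atg2b, Atg4b, Atg9a, Wipi2 and Lamp1, with log2 fold changes between -0.18 and -0.43.

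**Figure D1:**
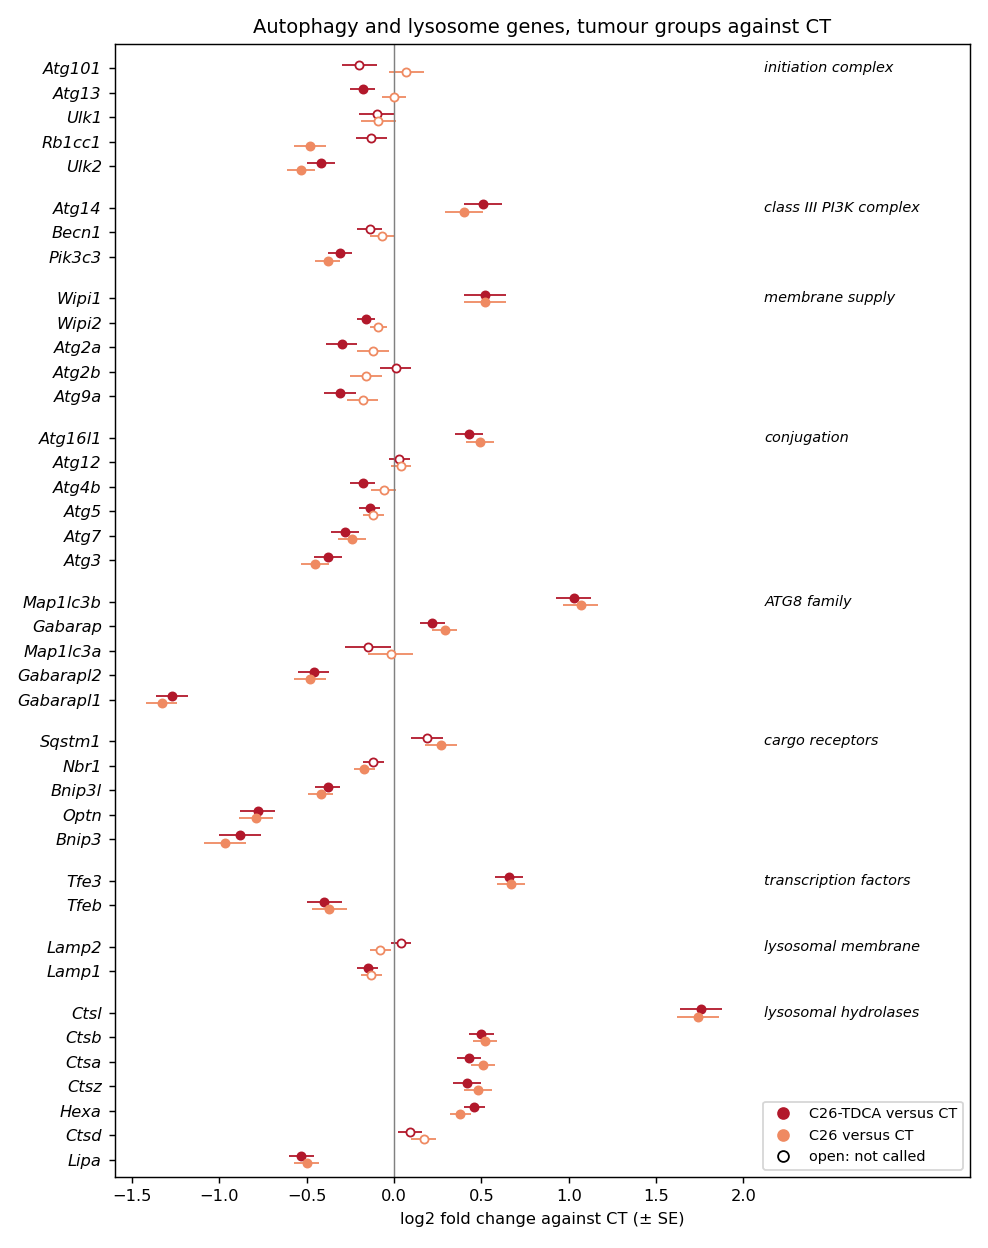
Log2 fold change against CT (x axis, mean with SE bars) of each of the 40 genes (y axis, grouped by role) in C26-TDCA livers (dark red) and in C26 livers (orange). Filled points passed an adjusted p under 0.05 and open points did not. Ctsl lies farthest to the right at 1.76 in C26-TDCA livers and 1.74 in C26 livers, and Gabarapl1 farthest to the left at -1.27 in C26-TDCA livers and -1.33 in C26 livers.

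Of the initiation complex, the catalytic subunit gene Ulk2 and the scaffold gene Rb1cc1, which encodes FIP200, fell in C26 livers, and the other 3 genes were not called. Ulk2 was expressed at 66.0, 76.7 and 83.3 CPM (lowest, median and highest) in C26-TDCA livers, at 56.1, 70.4 and 83.5 CPM in C26 livers and at 84.3, 100.6 and 123.9 CPM in CT livers. Every tumour-bearing liver was below every CT liver. For Ulk2, the log2 fold change was -0.53 in C26 against CT livers (SE 0.08, adjusted p = 4.93e-06) and -0.42 in C26-TDCA against CT livers (SE 0.08, adjusted p = 1.10e-04). Rb1cc1 had a log2 fold change of -0.48 in C26 against CT livers (SE 0.09, adjusted p = 4.75e-05), which was -0.28 with the length and GC trend removed. Ulk1, which encodes the main initiating kinase, had a log2 fold change of -0.09 (SE 0.10, adjusted p = 0.484). The regulatory subunit genes Atg13 and Atg101 had values of -0.00 and 0.07.

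The class III phosphatidylinositol 3-kinase complex makes the lipid that recruits later autophagy proteins, and its 3 genes did not move together. The catalytic subunit gene Pik3c3 fell, the subunit gene Atg14, whose product directs the kinase to sites of autophagosome formation, rose, and Becn1, which encodes the scaffold beclin, was not called. Pik3c3 was at 13.3, 15.6 and 17.2 CPM (lowest, median and highest) in C26-TDCA livers, at 12.8, 14.6 and 16.6 CPM in C26 livers and at 17.3, 19.1 and 19.98 CPM in CT livers. Neither tumour group overlapped with CT. The log2 fold change of Pik3c3 was -0.38 in C26 against CT livers (SE 0.07, adjusted p = 4.16e-05), and that of Atg14 was 0.40 (SE 0.11, adjusted p = 0.00322). The value for Becn1 was -0.07 (SE 0.07, adjusted p = 0.410). An antisense gene without counts here overlaps 43.9% of the exonic length of Becn1.

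Among the genes of membrane supply, Wipi1 rose and the other 4 were not called in C26 livers. WIPI proteins bind the lipid made by the class III kinase, ATG2 proteins carry lipids to the growing membrane and ATG9 moves them between its leaflets. Wipi1 was at 27.9, 31.2 and 37.2 CPM (lowest, median and highest) in C26-TDCA livers, at 26.6, 28.7 and 50.6 CPM in C26 livers and at 19.0, 22.2 and 24.1 CPM in CT livers. All 16 tumour-bearing livers exceeded all 6 CT livers. The log2 fold change of Wipi1 in C26 against CT livers was 0.52 (SE 0.12, adjusted p = 3.96e-04), and 0.40 without the C26 liver at 50.6 CPM. The related Wipi2 had -0.09 (SE 0.05, adjusted p = 0.163), and Atg2a, Atg2b and Atg9a lay between -0.12 and -0.18. Atg9a was called lower without C26 replicate 2, at -0.23 (adjusted p = 0.0217), and Atg2b with a replicate block, at -0.21 (adjusted p = 0.0445). With the length and GC trend removed, all 4 were called lower. They were then at -0.43 for Atg2a (adjusted p = 8.23e-04), -0.30 for Atg2b (4.61e-04), -0.42 for Atg9a (1.12e-04) and -0.27 for Wipi2 (0.00129).

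The conjugation machinery also held genes that moved in opposite directions. Atg16l1, whose product places the conjugating enzyme complex on the membrane, rose. Atg3 and Atg7, the enzymes that pass ATG8 proteins to their lipid, fell, while Atg5, Atg12 and the protease gene Atg4b were not called. With limma, Atg5 was called lower (-0.12, adjusted p = 0.0457), as was Atg4b with the length and GC trend removed (-0.18, adjusted p = 0.0277). Atg16l1 was at 45.1, 54.4 and 59.8 CPM (lowest, median and highest) in C26-TDCA livers, at 45.5, 54.1 and 70.4 CPM in C26 livers and at 34.7, 39.6 and 41.7 CPM in CT livers. Atg3 was at 38.8, 45.3 and 50.8 CPM in C26-TDCA livers, at 34.8, 42.7 and 52.1 CPM in C26 livers and at 55.5, 58.7 and 62.9 CPM in CT livers. For both genes, neither tumour group overlapped with CT. Their log2 fold changes in C26 against CT livers were 0.49 for Atg16l1 (SE 0.08, adjusted p = 2.29e-05) and -0.45 for Atg3 (SE 0.08, adjusted p = 2.25e-05). With the length and GC trend removed, Atg3 was at -0.29. Atg7 had -0.24 (SE 0.08, adjusted p = 0.0103), which was -0.43 with that trend removed and -0.17 with upper-quartile scaling, where it was no longer called (adjusted p = 0.0697).

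The ATG8 family showed opposite changes between close relatives. Map1lc3b, which encodes LC3B, the protein usually followed as a mark of autophagosomes, rose 2.11-fold in C26 livers, and Gabarapl1, a member of the GABARAP branch, was 2.51-fold lower. Map1lc3b (chr8:121590361-121598760, plus strand, GRCm38) was at 179, 209.7 and 281 CPM (lowest, median and highest) in C26-TDCA livers, at 198, 215 and 276 CPM in C26 livers and at 92.7, 108 and 122 CPM in CT livers. The lowest tumour-bearing liver was above the highest CT liver. On the log2 scale, Map1lc3b had a fold change of 1.07 in C26 against CT livers (SE 0.10, adjusted p = 1.96e-09) and 1.03 in C26-TDCA against CT livers (SE 0.10, adjusted p = 3.99e-09). Gabarapl1 (chr6:129533160-129542346, plus strand) was at 112, 127 and 154 CPM in C26-TDCA livers, at 93.7, 122 and 154 CPM in C26 livers and at 286, 317 and 326 CPM in CT livers. Every CT liver was above every tumour-bearing liver. Gabarapl1 had a log2 fold change of -1.33 in C26 against CT livers (SE 0.09, adjusted p = 8.92e-12) and -1.27 in C26-TDCA against CT livers (SE 0.09, adjusted p = 1.89e-11).

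The other ATG8 genes moved less. Gabarap rose by a log2 fold change of 0.29 in C26 against CT livers (SE 0.07, adjusted p = 0.00136), with 132, 146 and 178 CPM (lowest, median and highest) in C26-TDCA livers, 136, 151 and 180.3 CPM in C26 livers and 118, 125 and 134 CPM in CT livers. No C26 liver overlapped with CT, and 7 of 8 C26-TDCA livers were above every CT liver. Gabarapl2 was at 24.0, 27.0 and 35.2 CPM in C26-TDCA livers, at 24.1, 26.1 and 32.5 CPM in C26 livers and at 35.1, 38.1 and 42.4 CPM in CT livers. It fell, with a log2 fold change of -0.48 in C26 against CT livers (SE 0.09, adjusted p = 3.98e-05). Map1lc3a, which encodes LC3A, was at 16.8, 20.8 and 25.9 CPM in C26-TDCA livers, at 16.7, 23.0 and 32.2 CPM in C26 livers and at 19.8, 23.8 and 25.2 CPM in CT livers. Its groups overlapped throughout, and its log2 fold change was -0.02 in C26 against CT livers (95% interval -0.27 to 0.23, adjusted p = 0.911).

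Per kilobase of transcript, the make-up of the family differed between tumour-bearing and CT livers. Gabarapl1 made up 26.4% ± 1.4 of the summed ATG8 level in CPM per kilobase in C26-TDCA livers, 24.7% ± 1.8 in C26 livers and 51.1% ± 1.7 in CT livers (mean ± SD, n = 8, 8 and 6). Map1lc3b made up 19.9% ± 2.4 in C26-TDCA livers, 20.2% ± 2.5 in C26 livers and 7.85% ± 0.74 in CT livers. Gabarap was the most abundant ATG8 transcript of the tumour-bearing livers by this measure, at 40.6% ± 1.6 in C26-TDCA livers and 41.7% ± 2.1 in C26 livers, against 27.9% ± 1.0 in CT livers. In CPM not divided by length, Map1lc3b was above Gabarap, at means of 221 and 147 in C26-TDCA livers and 228 and 154 in C26 livers. Levels per kilobase used the longest annotated transcript of each gene, and which transcripts these livers express was not tested. An antisense gene without counts here overlaps 28.3% of the exonic length of Gabarapl1. The summed level was 268 ± 25 CPM per kilobase in C26-TDCA livers, 274 ± 30 in C26 livers and 333.5 ± 13.8 in CT livers. The ratio of Map1lc3b to Gabarapl1 per kilobase was 0.613, 0.746 and 0.923 (lowest, median and highest) in C26-TDCA livers, 0.668, 0.787 and 1.02 in C26 livers and 0.138, 0.149 and 0.185 in CT livers. Both tumour groups were separated from CT by a gap wider than the range within CT.

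**Figure D2:**
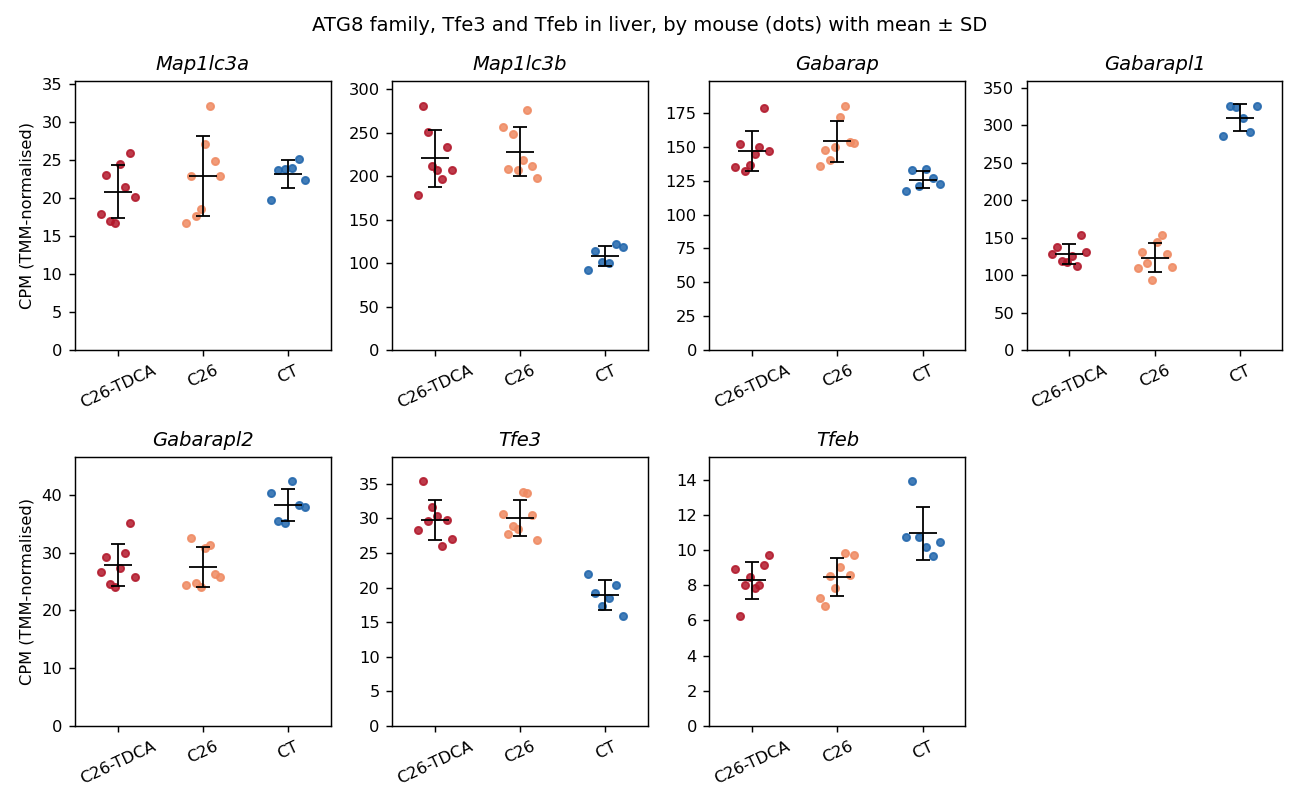
Normalised level in CPM (y axes, from 0) of the 5 ATG8 genes and of Tfe3 and Tfeb in each C26-TDCA, C26 and CT liver (dots), with the mean and SD. Map1lc3b and Tfe3 are higher and Gabarapl1 lower in all 16 tumour-bearing livers than in any CT liver, while Map1lc3a overlaps across the groups.

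Among the cargo receptors, 4 of 5 fell and Sqstm1 rose in C26 livers. Bnip3 and Bnip3l encode receptors in the outer mitochondrial membrane that mark mitochondria for removal, and Optn encodes optineurin, a receptor for ubiquitin-marked mitochondria and bacteria. Bnip3 (chr7:138890836-138909519, minus strand) was at 50.6, 62.8 and 89.4 CPM (lowest, median and highest) in C26-TDCA livers, at 48.4, 62.5 and 79.1 CPM in C26 livers and at 103, 121 and 133 CPM in CT livers. Optn was at 39.6, 55.1 and 61.5 CPM in C26-TDCA livers, at 41.5, 55.3 and 62.0 CPM in C26 livers and at 88.9, 90.9 and 94.2 CPM in CT livers. For both genes every tumour-bearing liver was below every CT liver. The log2 fold changes in C26 against CT livers were -0.97 for Bnip3 (SE 0.12, adjusted p = 1.30e-07), -0.79 for Optn (SE 0.10, adjusted p = 1.54e-07) and -0.42 for Bnip3l (SE 0.07, adjusted p = 6.99e-06). Bnip3l has 1 named pseudogene in the table, and reads shared with it could not be told apart. An antisense gene without counts here overlaps 22.3% of the exonic length of Bnip3.

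The receptors of ubiquitin-marked aggregates, Nbr1 and Sqstm1, moved less, and their calls depended on the settings. Nbr1 had a log2 fold change of -0.17 in C26 against CT livers (SE 0.06, adjusted p = 0.0144), which was -0.10 with upper-quartile scaling (adjusted p = 0.124) and -0.14 with the C26 and CT libraries alone (adjusted p = 0.0594). Sqstm1, which encodes p62, was at 272 ± 34 CPM in C26-TDCA livers, 288 ± 35 CPM in C26 livers and 238.5 ± 22.8 CPM in CT livers (SD, n = 8, 8 and 6). Its log2 fold change was 0.27 in C26 against CT livers (SE 0.09, adjusted p = 0.0130) but 0.11, and no longer called, once the trend on length and GC content was removed (adjusted p = 0.278). Exons of Sqstm1 overlap those of the antisense gene Mrnip over 17.3% of their length, and whether the counting used strand is not given in the sources used here.

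**Figure D3:**
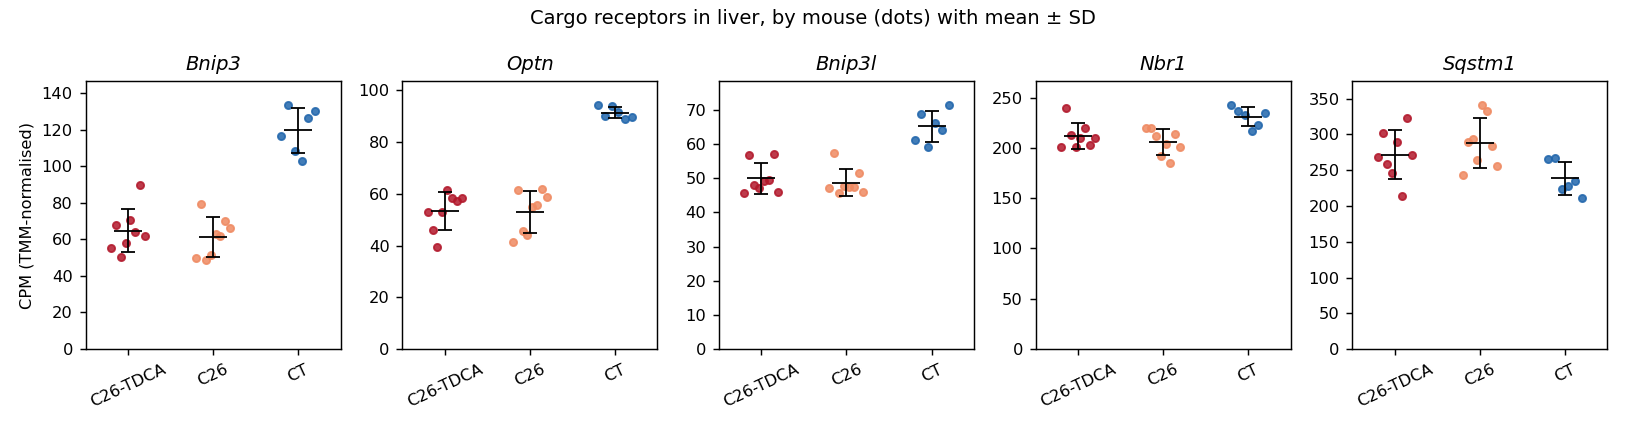
Normalised level in CPM (y axes, from 0) of the 5 cargo receptors in each C26-TDCA, C26 and CT liver (dots), with the mean and SD. Bnip3, Optn and Bnip3l are lower in every tumour-bearing liver than in any CT liver, whereas Nbr1 and Sqstm1 overlap.

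The transcription factor genes Tfe3 and Tfeb moved in opposite directions. Tfe3 (chrX:7762560-7775202, plus strand) was at 25.99, 29.7 and 35.4 CPM (lowest, median and highest) in C26-TDCA livers, at 26.8, 29.7 and 33.7 CPM in C26 livers and at 15.9, 18.8 and 22.02 CPM in CT livers. Tfeb (chr17:47737030-47792419, plus strand) was the lowest expressed of the 40 genes, at 6.25, 8.23 and 9.72 CPM in C26-TDCA livers, 6.81, 8.55 and 9.85 CPM in C26 livers and 9.68, 10.6 and 13.9 CPM in CT livers. Neither tumour group overlapped with CT for Tfe3, and both did for Tfeb. Tfe3 rose in C26 against CT livers by a log2 fold change of 0.67 (SE 0.08, adjusted p = 8.59e-08), and Tfeb fell by 0.37 on the log2 scale (SE 0.10, adjusted p = 0.00319), or by 0.61 with the length and GC trend removed. Per kilobase, the ratio of Tfe3 to Tfeb was 1.03, 1.29 and 2.09 in C26-TDCA livers, 1.02, 1.33 and 1.55 in C26 livers and 0.510, 0.635 and 0.781 in CT livers. In each tumour-bearing liver the ratio was above that of every CT liver.

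TFEB and TFE3 bind the E-box CACGTG, which reads the same on both strands. The RefSeq table of promoters (GRCm38.p6, from 250 bases before to 50 bases after each start) held 32 of the 40 genes, and 9 of those (28.1%) had at least 1 CACGTG in a promoter, against 8.09% of the 27025 genes in the table. Some starts of the table lie inside the gene: 27 of the 32 had a start within 500 bases of the annotated gene start, and 6 of them held the E-box there. The longer CLEAR motif was searched only as an exact match to a fixed palindromic form that contains the E-box. That form was in none of the 32 and in 0.37% of all genes. E-boxes with other letters beside them were not counted as CLEAR, so variant forms of the motif were not tested. Of the 9 genes with the E-box, 3 rose, 3 fell and 3 were not called in C26 against CT livers. Of the 23 without it, 7 rose, 7 fell and 9 were not called. These are letter matches, and binding was not measured. Those 6 genes were Lamp1, Atg5, Bnip3, Atg3, Ctsd and Ctsl. The promoters of Lamp1, Atg5 and Bnip3 follow because all their E-boxes lie upstream of the start and before the first annotated exon in that stretch. Whether E-boxes past such an exon, as in the other genes, lie outside exons was not examined. The 3 promoters are given with the motif in capitals, as 5′ to 3′ sequence on the gene's strand. They lie at chr8:13158911-13159160 (plus strand), chr10:44268089-44268338 (plus strand) and chr7:138909520-138909756 (minus strand).
Lamp1: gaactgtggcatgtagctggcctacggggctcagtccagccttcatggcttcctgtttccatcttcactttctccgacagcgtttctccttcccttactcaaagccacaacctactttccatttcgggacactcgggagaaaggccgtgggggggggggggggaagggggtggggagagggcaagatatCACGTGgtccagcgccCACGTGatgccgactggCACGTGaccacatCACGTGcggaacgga
Atg5: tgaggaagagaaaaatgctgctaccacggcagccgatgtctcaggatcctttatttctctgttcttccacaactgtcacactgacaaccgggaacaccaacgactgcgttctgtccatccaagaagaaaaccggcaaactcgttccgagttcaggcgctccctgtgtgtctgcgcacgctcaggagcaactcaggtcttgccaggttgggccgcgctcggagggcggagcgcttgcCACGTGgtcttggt
Bnip3: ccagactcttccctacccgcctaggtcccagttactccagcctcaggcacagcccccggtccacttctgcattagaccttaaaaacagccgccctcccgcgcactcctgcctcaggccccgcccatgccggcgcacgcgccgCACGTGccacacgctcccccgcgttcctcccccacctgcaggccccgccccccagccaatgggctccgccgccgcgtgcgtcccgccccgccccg
The Lamp1 and Atg5 stretches end at the base before the start, which is -1, and the Bnip3 stretch ends at -14, where an annotated exon begins. On this scale the first base of the motif is at -61, -45, -28 and -15 in Lamp1, at -14 in Atg5 and at -108 in Bnip3. In C26 livers Lamp1 and Atg5 were not called and Bnip3 fell.

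The lysosomal membrane genes Lamp1 and Lamp2, which encode the most abundant glycoproteins of that membrane, were not called in C26 livers. Lamp1 was at 567, 589.7 and 655 CPM (lowest, median and highest) in C26-TDCA livers, at 572, 621 and 653 CPM in C26 livers and at 617, 675 and 706 CPM in CT livers. Its log2 fold change was -0.13 in C26 against CT livers (SE 0.06, adjusted p = 0.0516), just outside the threshold, and it was called lower without CT replicate 1 (-0.16, adjusted p = 0.0305), without C26-TDCA replicate 7 (adjusted p = 0.0499), with DESeq2 (adjusted p = 0.0171) and with limma (adjusted p = 0.0144). With the length and GC trend removed, Lamp1 was called lower as well (-0.20, adjusted p = 0.00468). Lamp2 had a value of -0.08 (95% interval -0.19 to 0.04, adjusted p = 0.264).

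Of the 7 lysosomal hydrolases, 5 rose, 1 fell and 1 was not called in C26 livers, with a median log2 fold change of 0.48. Ctsl, which encodes the cysteine protease cathepsin L, rose 3.33-fold. Ctsl (chr13:64359337-64370890, minus strand) was at 1025, 1434 and 1818 CPM (lowest, median and highest) in C26-TDCA livers, at 1172, 1413 and 1618 CPM in C26 livers and at 376, 424 and 458 CPM in CT livers. The lowest tumour-bearing liver stood above the highest CT liver by more than the whole CT range. Ctsl had a log2 fold change of 1.74 in C26 against CT livers (SE 0.12, adjusted p = 1.45e-11) and 1.76 in C26-TDCA against CT livers (SE 0.12, adjusted p = 1.12e-11).

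Ctsb and Ctsz, which encode further cysteine cathepsins, Ctsa, a carboxypeptidase, and Hexa, a subunit of the enzyme that degrades gangliosides, also rose. Their log2 fold changes in C26 against CT livers were 0.52 for Ctsb (SE 0.07, adjusted p = 5.56e-07), 0.51 for Ctsa (SE 0.07, adjusted p = 1.99e-06), 0.48 for Ctsz (SE 0.08, adjusted p = 2.08e-05) and 0.38 for Hexa (SE 0.06, adjusted p = 1.27e-05). With the length and GC trend removed, Ctsa was at 0.31 and Hexa at 0.24. Antisense genes in the table overlap 17.4% of the exonic length of Ctsa and 12.8% of that of Ctsb. Annotated genes without counts here overlap 32.9% of that of Ctsl (both strands), 34.4% of that of Ctsd (same strand) and 12.8% of that of Hexa (antisense). What these overlaps did to the counts was not tested. The aspartic protease gene Ctsd had a log2 fold change of 0.17 (SE 0.07, adjusted p = 0.0526). It was called higher with DESeq2 size factors (adjusted p = 0.0494), upper-quartile scaling (0.24, adjusted p = 0.0100), DESeq2 (adjusted p = 0.0388) and a replicate block (0.19, adjusted p = 0.0362). The same held with the C26 and CT libraries alone (adjusted p = 0.0375) and without C26 replicate 1 (0.18, adjusted p = 0.0420).

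Lipa, which encodes the acid lipase that frees cholesterol and fatty acids from esters inside lysosomes, fell. It was at 103, 123 and 135 CPM (lowest, median and highest) in C26-TDCA livers, at 115, 120.5 and 139 CPM in C26 livers and at 157, 175 and 187 CPM in CT livers. No tumour-bearing liver reached the CT range. Lipa had a log2 fold change of -0.50 in C26 against CT livers (SE 0.07, adjusted p = 1.18e-06) and -0.53 in C26-TDCA against CT livers (SE 0.07, adjusted p = 3.96e-07). Per kilobase, the ratio of Ctsl to Lipa was 4.78, 7.03 and 11.1 in C26-TDCA livers, 5.32, 7.58 and 8.55 in C26 livers and 1.43, 1.49 and 1.76 in CT livers.

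Markers of cell types were examined as well, in a comparison where 28.9% of all genes tested were called higher and 29.2% lower. All 12 Kupffer cell and macrophage markers rose in C26 livers, with a median log2 fold change of 0.95, and their summed level was 660.2, 788.5 and 846.5 CPM (lowest, median and highest) in C26-TDCA livers, 536, 707 and 803 CPM in C26 livers and 339, 355 and 386 CPM in CT livers. Of 9 monocyte and neutrophil markers tested 7 rose, as did 8 of 9 sinusoidal endothelial markers and 7 of 10 stellate cell markers, of which 1 fell. Median log2 fold changes were 2.58 for the monocyte and neutrophil, 0.82 for the endothelial and 1.04 for the stellate cell markers. Of 6 erythroid markers 5 rose and 1 fell, and of 6 cholangiocyte markers 2 rose. Of the T and NK cell markers 1 of 2 tested fell, as did 1 of 6 B and plasma cell markers. Of the hepatocyte markers, 3 of 10 rose and 3 fell. None of the 12 macrophage markers was called in C26-TDCA against C26 livers. The part of these cell types in the hydrolase result was not tested.

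**Figure D4:**
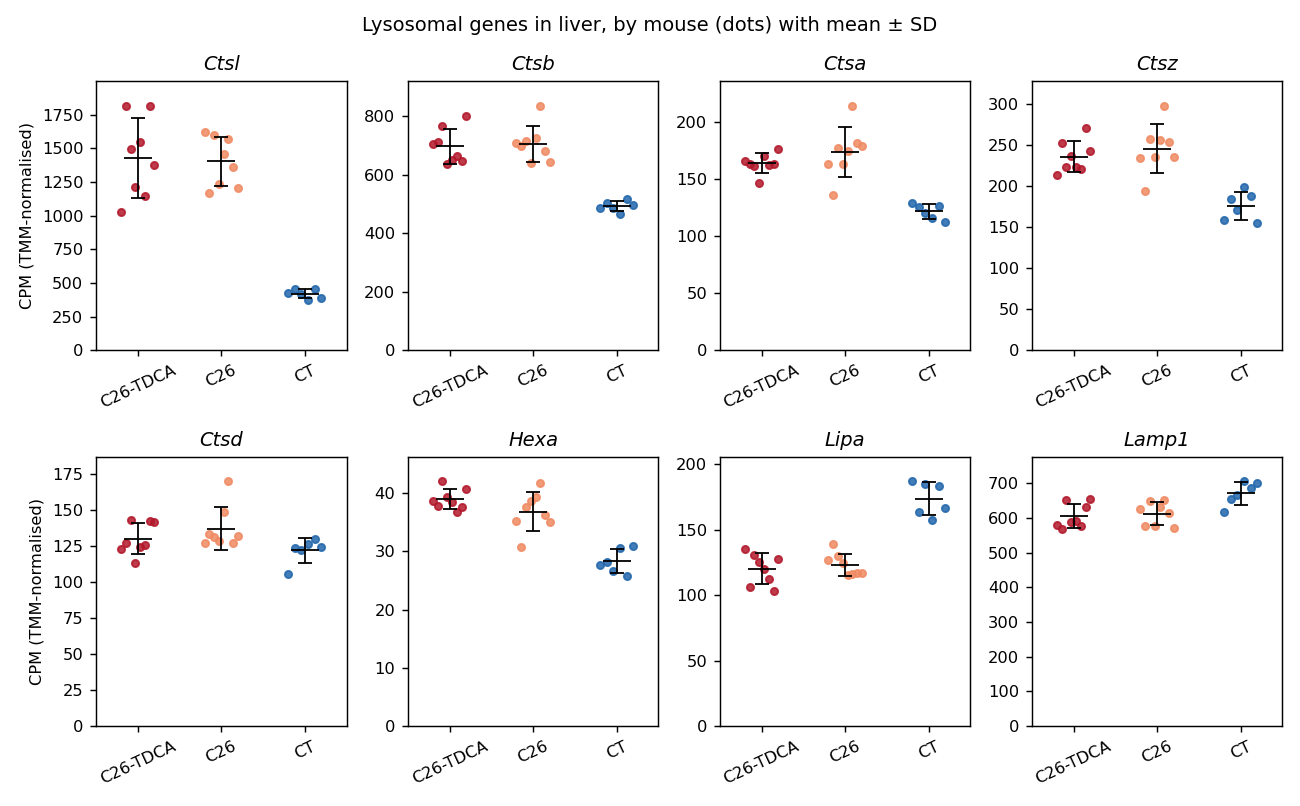
Normalised level in CPM (y axes, from 0) of the 7 hydrolases and Lamp1 in each C26-TDCA, C26 and CT liver (dots), with the mean and SD. Ctsl averages 1429 CPM in C26-TDCA livers, 1403 CPM in C26 livers and 421 CPM in CT livers, and Lipa is lower in every tumour-bearing liver than in any CT liver.

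A further 176 autophagy and lysosome genes were tested for context. Of these, 58 rose and 53 fell in C26 against CT livers, with a median log2 fold change of 0.00, and 63.1% were called, near the background of 58.1%. As among the 40 genes, more hydrolases rose than fell and more cargo receptors fell than rose. Of 41 other lysosomal hydrolases and cofactors, 27 rose and 5 fell, with a median of 0.28. Among them Ctsc, a dipeptidyl peptidase that activates granule proteases, had a log2 fold change of 2.52 (SE 0.12, adjusted p = 1.40e-14), Lgmn, an asparagine-specific protease, 1.92 (SE 0.11, adjusted p = 6.62e-13) and Grn, which encodes progranulin, 1.76 (SE 0.10, adjusted p = 2.12e-13). Gm2a, a cofactor of ganglioside breakdown, fell with -1.03 (SE 0.09, adjusted p = 5.73e-10).

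Of 16 other cargo receptors and mitophagy genes, 2 rose and 8 fell. Calcoco1, an ATG8-binding receptor, had a log2 fold change of -0.94 (SE 0.10, adjusted p = 9.85e-09) and Pink1, the kinase that tags damaged mitochondria, -0.62 (SE 0.08, adjusted p = 2.18e-07), with Phb2 and Bcl2l13 both at -0.45. Of 24 other genes of the autophagy machinery 5 rose and 9 fell, among them Vmp1, a scramblase of the endoplasmic reticulum (0.77), Wdr45b, a relative of the WIPI genes (0.61), and Stx17 and Snap29, which fuse autophagosomes with lysosomes (-0.49 and -0.27). Of 23 other lysosomal membrane proteins 9 rose and 5 fell. Clcn7, a chloride and proton exchanger, had 0.89 and Laptm5, a leukocyte lysosomal protein, 1.05. Npc1, which exports cholesterol from lysosomes, had -1.04 and the calcium channel gene Mcoln1 -0.55.

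Of 18 subunits and accessory proteins of the V-ATPase, the proton pump that acidifies lysosomes, 6 rose and 4 fell. Atp6v1g1, Atp6ap1 and Atp6v1b2 had log2 fold changes of 0.50, 0.41 and 0.29, and Atp6v1d had -0.44. Of 19 genes of lysosomal targeting and fusion 1 rose and 8 fell, including Rilp (-0.75), Sort1 (-0.66), Vps16 (-0.30) and Vps41 (-0.21). Of 35 upstream regulators 8 rose and 14 fell. The folliculin partners Fnip2 and Fnip1 had -1.86 and -1.08, the mTOR inhibitor gene Deptor -1.33 and the transcription factor gene Foxo3 -1.14, while Mtor itself was at -0.00.

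In C26-TDCA livers set against C26 livers, 1 of the 40 genes rose and none fell (edgeR quasi-likelihood test, adjusted p under 0.05), against 1.97% of all genes tested, 1.73% higher and 0.237% lower. At an unadjusted p under 0.05 there were 5, and DESeq2 also called 1 higher and 0 lower. The median log2 fold change of the 40 genes was -0.02, and -0.01 over all genes. The 95% interval lay within 0.5 on the log2 scale on both sides for 39 of the 40, and no interval of an uncalled gene reached beyond 0.45. The C26-TDCA and C26 groups overlapped for all 40.

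The gene that rose was Rb1cc1 (chr1:6206197-6276648, plus strand), the scaffold of the initiation complex. It was at 36.8, 46.3 and 54.2 CPM (lowest, median and highest) in C26-TDCA livers, at 29.0, 35.9 and 43.1 CPM in C26 livers and at 43.8, 50.4 and 55.5 CPM in CT livers. Of the 8 C26-TDCA livers, 6 were above every C26 liver and 2 within the C26 range. The log2 fold change in C26-TDCA against C26 livers was 0.35 (SE 0.08, adjusted p = 0.0268). It was 0.05 with the length and GC trend removed (adjusted p = 0.826), and 0.35 without reaching the threshold when the CT libraries were left out of the fit (adjusted p = 0.0669). Against CT livers, C26-TDCA livers were at -0.13 (SE 0.09, adjusted p = 0.207), but at -0.23 and called lower with that trend removed (adjusted p = 0.00622).

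Rb1cc1 has the longest transcript of the 40 genes, 7.61 kilobases, with a GC content of 39.1%, near the low end of their range of 38.6 to 63.2%. In this comparison, across the 40 genes with Rb1cc1 included, Pearson's r of the log2 fold change was 0.31 with log2 length and -0.58 with GC content. Across the 14775 genes with both values it was 0.15 and -0.33. Of the 40 genes, the 8 of at least 5 kilobases had a median of 0.01 and the 8 under 2 kilobases -0.02. For all genes of those lengths the medians were 0.10 and -0.06. Genes are not independent replicates, and these values describe the libraries. With the trend removed, the comparison called 9 genes higher and 8 lower of all genes, against 256 and 35 without that step. Without trend removal the counts were 41 and 4 with the 2 tumour groups alone, 440 and 111 with DESeq2, 409 and 59 with limma, 527 and 67 without C26 replicate 1, and 436 and 62 without C26-TDCA replicate 8. Of the 176 other autophagy and lysosome genes, 1 rose and none fell in C26-TDCA against C26 livers. It was Fnip1, which encodes a folliculin partner in nutrient sensing, at 40.7 ± 5.6 CPM in C26-TDCA livers, 28.6 ± 4.8 CPM in C26 livers and 60.4 ± 5.9 CPM in CT livers. Its log2 fold change was 0.51 (SE 0.10, adjusted p = 0.0143), and 0.25 with the trend removed (adjusted p = 0.165).

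**Figure D5:**
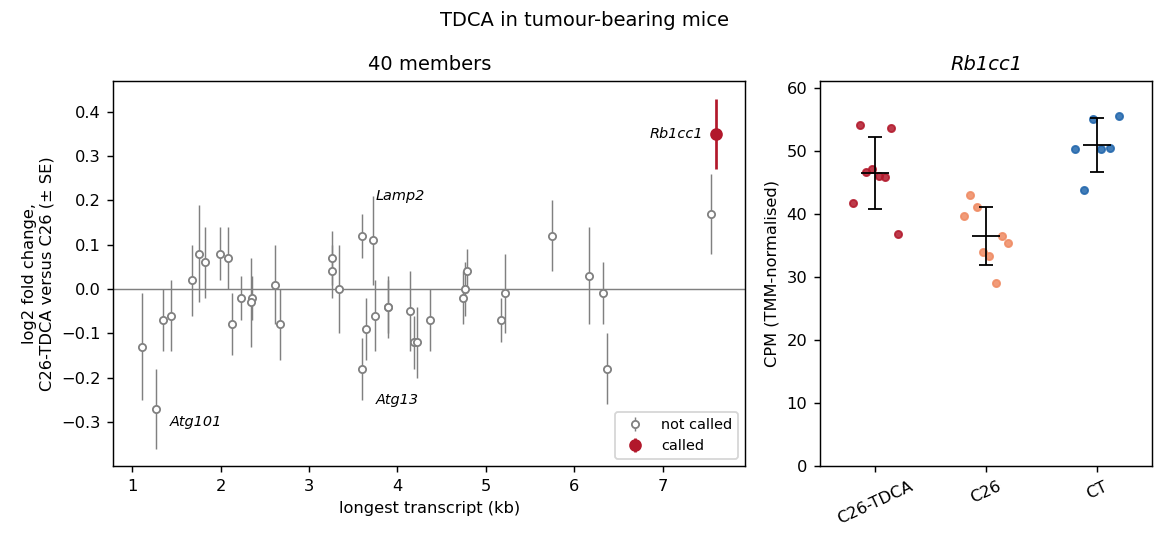
Left, log2 fold change in C26-TDCA against C26 livers (y axis, with SE bars) of each of the 40 genes against the length of its longest transcript (x axis, kilobases); right, Rb1cc1 in CPM in each liver (dots), with the mean and SD. The 39 uncalled genes lie between -0.27 and 0.17, and Rb1cc1, the longest, is at 0.35.

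In C26-TDCA livers set against CT livers, 11 of the 40 genes rose and 18 fell, against 28.7% of all genes tested higher and 28.2% lower, 57.0% in all. The median log2 fold change was -0.14, and 0.01 over all genes. The groups did not overlap for 19 of 40 (47.5%), against 31.6% of all genes tested. With upper-quartile scaling the counts were 12 and 13, against 4671 and 3749 of the 14785 genes tested. Both tumour groups were compared with the same CT libraries, so their values stand side by side and are not independent. The genes named by role were at log2 fold changes of 0.51 in C26-TDCA and 0.40 in C26 for Atg14, -0.31 and -0.38 for Pik3c3, 0.52 and 0.52 for Wipi1, 0.43 and 0.49 for Atg16l1, and -0.38 and -0.45 for Atg3. For the receptors and factors the values were -0.88 in C26-TDCA and -0.97 in C26 for Bnip3, -0.78 and -0.79 for Optn, 0.66 and 0.67 for Tfe3, and -0.40 and -0.37 for Tfeb.

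Called against CT in C26-TDCA livers and not in C26 livers were 7 genes, all lower: Atg13, Atg2a, Atg9a, Wipi2, Atg4b, Atg5 and Lamp1. Their log2 fold changes against CT lay between -0.14 and -0.31 in C26-TDCA livers and between -0.00 and -0.18 in C26 livers, and none of them was called between the 2 tumour groups. In C26 against CT livers, Atg13, Atg2a, Atg9a, Wipi2, Atg4b and Lamp1 were also called lower with the length and GC trend removed. Atg5 was called lower in that comparison with limma. With upper-quartile scaling, Atg13, Wipi2, Atg4b, Atg5 and Lamp1 were no longer called against CT in C26-TDCA livers. Without 1 library, Atg13 (adjusted p = 0.0503 without CT replicate 5 and 0.0501 without CT replicate 1), Atg4b (adjusted p = 0.0703 without CT replicate 1) and Atg5 (adjusted p = 0.0502 without C26-TDCA replicate 8) also missed the threshold. Becn1 was called lower in C26-TDCA than in CT livers without CT replicate 1 (-0.19, adjusted p = 0.0312), and Atg101 without C26-TDCA replicate 7 (-0.24), where it only just passed the threshold. Atg101 was also called lower with limma (-0.23, adjusted p = 0.0357) and a replicate block (-0.23, adjusted p = 0.0466). With the length and GC trend removed, Becn1 (-0.20, adjusted p = 0.0311) and Ulk1 (-0.29, adjusted p = 0.0184) were called lower too. The 3 genes called in C26 and not in C26-TDCA livers were Rb1cc1, Sqstm1 and Nbr1. Of these only Rb1cc1 was called between the tumour groups, a call that ended when the trend on length and GC content was taken out. In that fit Rb1cc1 (-0.23, adjusted p = 0.00622) and Nbr1 (-0.24, adjusted p = 7.36e-04) were also called lower in C26-TDCA than in CT livers. Nbr1 was called there by DESeq2 (adjusted p = 0.0342) and limma (adjusted p = 0.0221) too, and Sqstm1 with upper-quartile scaling (0.23, adjusted p = 0.0320).

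Spread between mice was wider in the tumour groups. The median coefficient of variation of the 40 genes was 10.1% in C26-TDCA livers, 12.0% in C26 livers and 7.36% in CT livers. It was highest for Ctsl among C26-TDCA livers (20.7%), for Wipi1 among C26 livers (24.8%) and for Atg14 among CT livers (14.6%), and lowest for Optn among CT livers (2.45%).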

How the data were processed

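PolyA RNA was sequenced from 22 mouse livers. The deposited table holds raw counts per Ensembl gene, which the authors made, per the submitters' processing notes, from reads demultiplexed with bcl2fastq 2.17. The same notes list the aligner HISAT2 2.2.1, the counter featureCounts 2.0.3, Trimmomatic 0.40, FastQC, DESeq2 1.42.0 and the build GRCm38. The sources used here do not give the annotation release, the strand setting or how multi-mapping reads were handled. The table was restricted before deposit: every gene reaches a count of at least 10 in some library. Groups were taken from the sample titles. The labels name no batch. Counts agreed between no pair of libraries within sampling noise (lowest chi-square per degree of freedom 10.4).

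Gene names, positions and exonic overlaps came from the GENCODE annotation of GRCm38, and promoters from RefSeq. Genes with low counts were removed with filterByExpr (minimum count 10), which left 14785 genes and removed 663. Counts were scaled by TMM and tested in edgeR 4.0.16 (R 4.3.3) with glmQLFit and glmQLFTest on all 22 libraries, 1 mean per group, with Benjamini-Hochberg adjustment over all genes tested and a threshold of 0.05. CPM values are TMM-scaled, and CPM per kilobase used the longest transcript. The median biological coefficient of variation was 15.1%.

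Named were members called with an absolute log2 fold change of at least 1, the called member of lowest p in each role, all ATG8 genes and both transcription factors. Of each other list, up to 4 called genes of lowest p with at least 5 CPM were named. Other genes named were chosen after their values were seen. The members and lists were chosen with earlier results of these data known.

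As alternatives, the scaling (upper quartile, or the size factors of DESeq2), the filter (none) and the tool (DESeq2 1.42.0, or voomWithQualityWeights in limma 3.58.1) were changed in turn. Others fitted only the compared groups, added a replicate block, removed a loess trend (span 0.3) on transcript length and GC content, left out single libraries, or tested with glmTreat whether changes exceeded 0.5 on the log2 scale.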

Additional observations from a re-analysis of the deposited data

Results flagged for a closer look

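In 8 of 120 combinations of gene and group, 1 library lay far from the other libraries of its group by Dixon's criterion, which chance meets in about 1 of 20. Nearest values are those of the next library. Gabarap was 178 CPM in C26-TDCA replicate 7, against 152 CPM in the nearest library, and Atg12 was 30.4 CPM in the same liver, against 25.9 CPM. Wipi1 was 50.6 CPM in C26 replicate 1, against 32.9 CPM, and Ctsb was 837 CPM in C26 replicate 6, against 727 CPM. Tfeb was 13.9 CPM in CT replicate 2, against 10.8 CPM, and Lamp2 was 513 CPM in the same liver, against 546 CPM. Atg2b was 44.8 CPM in CT replicate 6, against 51.3 CPM. Ctsd was 105 CPM in CT replicate 1, against 122 CPM.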

How the results depend on the processing

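In C26 against CT livers, 21 of the 40 genes fell with the length and GC trend removed (13 without that step). By glmTreat 3 of the 40 rose and 3 fell, against 1980 and 1633 of all 14785 genes tested. In C26-TDCA against CT livers, 3 rose and 3 fell by glmTreat, against 1992 and 1560 of all genes tested. Atg2b reversed there, at -0.22 with the trend removed (adjusted p = 0.00622) against 0.01 without. In C26-TDCA against C26 livers, 0 of the 40 genes rose with the 2 groups alone, with the trend removed and by glmTreat. Of the 176 other genes, 111 were called in C26 against CT livers (28 by glmTreat) and 107 in C26-TDCA against CT livers (34 by glmTreat). In C26-TDCA against C26 livers 1 was called, against 3 with DESeq2, 3 with limma, 2 with a replicate block, and 0 with the trend removed and by glmTreat. The causes were not tested. Single libraries left out were CT replicate 5, C26 replicates 1 and 2 and C26-TDCA replicate 8 and, chosen after seeing the data, CT replicate 1 and C26-TDCA replicate 7. Without each of these, C26 livers had 12 to 13 genes higher and 13 to 14 lower than CT, C26-TDCA livers had 11 higher and 17 to 19 lower than CT, and 1 higher and 0 lower than C26. The other genes called were then 102 to 113 in C26 against CT, 102 to 106 in C26-TDCA against CT, and 1 to 4 in C26-TDCA against C26 (4 without C26 replicate 1, 2 without C26 replicate 2 and 2 without C26-TDCA replicate 8). The labels tie no animals together by number. Deviations of same-numbered C26-TDCA and C26 livers correlated above 0.1 in 5 of 8 pairs (median 0.121, against -0.025 for other pairs) and best with their own number in 3 of 8, so the condition that every pair exceed 0.1 was not met, and a shared batch by number was not tested further. With the replicate block, 13 genes rose and 14 fell in C26 against CT livers, 11 and 16 in C26-TDCA against CT livers (Atg13, Atg4b and Wipi2 no longer called, adjusted p = 0.107, 0.0563 and 0.0582), and 1 and 0 in C26-TDCA against C26 livers. Over all genes tested, the fit with that block called 4052 higher and 4230 lower in C26 against CT livers. In C26-TDCA against CT livers it called 4036 and 3981. Upper-quartile scaling moved the median log2 fold change of all genes by at most 0.07.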

Other observations

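Further regulators of the pathway, chosen after their values were seen, also differed from CT. Tfec, a relative of Tfeb expressed in macrophages, was at 4.26 ± 0.87 CPM in C26-TDCA livers, 4.01 CPM in C26 livers and 1.32 CPM in CT livers, with a log2 fold change of 1.58 in C26 against CT livers (SE 0.18, adjusted p = 6.64e-08). Mitf, another relative, had a log2 fold change of 0.61 (SE 0.15, adjusted p = 0.00103). Ddit4, which encodes an inhibitor of mTOR signalling, had a log2 fold change of 2.64 in C26 against CT livers (SE 0.44, adjusted p = 1.50e-05). It varied widely between mice, at 17.4 ± 10.7 CPM in C26-TDCA livers and 17.4 ± 9.1 CPM in C26 livers, against 2.80 ± 0.97 CPM in CT livers.

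Of the CT libraries, replicate 1 held the highest or lowest value of its group for 22 of the 40 genes. Of the C26 libraries, replicate 2 did so for 18, and C26-TDCA replicate 7 held the highest value for 14.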
